A study of Mus musculus with 6 samples.

Results

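Voltage-gated calcium channels of the ventricle were followed through 10 subunit genes, taken by symbol from a table of 18181 genes. All 10 were listed. They encode 5 pore-forming subunits (Cacna1c, Cacna1d, Cacna1s, Cacna1g and Cacna1h), 3 intracellular beta subunits (Cacnb1, Cacnb2 and Cacnb3) and 2 alpha2delta subunits (Cacna2d1 and Cacna2d2). The tissue was ventricle from C57BL6 mice, a common inbred strain, and no further allele or treatment is named. Young animals were 6 to 8 weeks old and aged animals 24 to 26 months. Each age had 3 libraries of poly(A) RNA, sequenced as read pairs of 100 bases. Whether a sample came from 1 mouse or from several is not in the labels, and the p-values below cover the spread among these 6 samples, which may be technical. The sex of the animals, the exact region of ventricle and the separation of atrium or conduction tissue are not stated.

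In a cardiac muscle cell, depolarization opens L-type channels, and the calcium that enters triggers release of more calcium from the sarcoplasmic reticulum, which starts contraction. The pore subunit of the cardiac L-type channel is Cav1.2, made from Cacna1c. In skeletal muscle the corresponding pore subunit is Cav1.1, made from Cacna1s, which acts mainly as a voltage sensor coupled to the release channel. T-type channels, made from Cacna1g (Cav3.1) or Cacna1h (Cav3.2), open near the resting potential. They serve pacemaking and are prominent in the fetal heart. Beta subunits bind the intracellular face of L-type pores and bring them to the surface, and alpha2delta subunits sit on the outside and raise the current.

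The comparison of cardiac with skeletal type turns on 2 pore genes, Cacna1c and Cacna1s, shown here with the sequence upstream of an annotated start of each. The stretches below end where the first GENCODE exon begins, are given 5′ to 3′ on the strand of the gene, and come from RefSeq's promoter table for GRCm38.p6. Capitals mark every match to CANNTG (an E-box), CATTCC, a MEF2 site, a CArG box or AGGTCA, on either strand, and no 2 matches overlap. The first stretch is chr1:136052561-136052749 (plus strand) and the second chr6:119196419-119196659 (minus strand), upstream of the most 5′ of the Cacna1c starts in that table. The RefSeq gene span of Cacna1c reaches to 119197384, so the second stretch lies inside that span.
Cacna1s: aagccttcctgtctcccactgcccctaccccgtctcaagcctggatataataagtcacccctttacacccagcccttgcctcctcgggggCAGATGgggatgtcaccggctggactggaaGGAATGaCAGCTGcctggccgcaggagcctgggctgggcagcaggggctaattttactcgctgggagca
Cacna1c: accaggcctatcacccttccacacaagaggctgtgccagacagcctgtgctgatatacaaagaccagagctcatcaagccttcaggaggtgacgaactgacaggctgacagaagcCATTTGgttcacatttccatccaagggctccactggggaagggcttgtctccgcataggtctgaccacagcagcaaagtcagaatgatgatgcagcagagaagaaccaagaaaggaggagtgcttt

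The Cacna1s stretch of 189 bases held 2 E-boxes, the first 160 and the second 123 bases before the RefSeq start, and 1 CATTCC match on the other strand, 130 bases before it. Of 32841 promoters, 57.1% held CANNTG and 10.1% held CATTCC in the same 189 bases. The Cacna1c stretch of 241 bases held 1 E-box, where 65.2% of promoters held one. Neither stretch held a match to MEF2, the CArG box or AGGTCA, which 1.23%, 1.07% and 10.8% of promoters held in 189 bases. These matches describe letters only.

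Libraries stood apart in more than 1 way. Markers of stratified epithelium, a tissue foreign to ventricle, summed to 285 and 459 FPKM over 8 genes in aged replicates 1 and 2, and to between 0.32 and 0.73 in the other 4 libraries. Aged replicate 3 was therefore also compared alone with the young libraries, in a fit that takes the spread of a single aged sample to equal that of the young ones. Aged replicate 3 differed in other respects too. Its estimated depth was the lowest, at 0.847 of young replicate 1. Its Nppa was at 137 FPKM, beside 38.9 and 36.3 in aged replicates 1 and 2. Markers of cardiac muscle were abundant in every library (Myh6, Tnnt2, Myl2 and others, 9 markers summing to between 38007 and 49420 FPKM). Of 8 atrial markers, Myl7 (at most 1.45 FPKM) and Sln (at most 0.46, listed at 0 in 4 libraries) were low. Others were not: Nppa was at 36.3 to 232 FPKM and Kcnj3 at 15.45 to 31.2, with Nr2f2, Myl4 and Dkk3 between 1.18 and 6.47.

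Of the 10 subunit genes, 8 had a mean of at least 1 FPKM and were tested. These values divide the fragments of a gene by its transcript length and by the library's total, so levels can be compared between genes. Cacna1s and Cacna1c rose with age and Cacna1g fell (limma on log2(FPKM + 1), Benjamini-Hochberg adjusted p under 0.05 over all 11860 genes tested). Over all genes 26.4% were called, 9.32% as higher and 17.1% as lower. The count of 3 in 8 is close to that background and is no result about the set. The calls over all genes split into 1105 higher and 2026 lower as deposited. Median-of-ratios scaling gave 1484 and 1506, and quantile normalization gave 1316 and 1500. The median log2 difference of the 8 genes was -0.02, beside -0.06 for all tested genes. Cacna1d and Cacna2d2 lay below the level for testing. Exons of Cacna1s, Cacnb1, Cacnb2 and Cacna2d2 overlap gene models on the opposite strand that have no settled name, those of Cacna1d overlap Chdh, and those of Cacna1h overlap Tpsg1. Since the labels name no kit that marks strand, such pairs are not told apart. In bulk tissue, fewer cells of a type and less RNA per cell cannot be told apart.

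**Figure D1:**
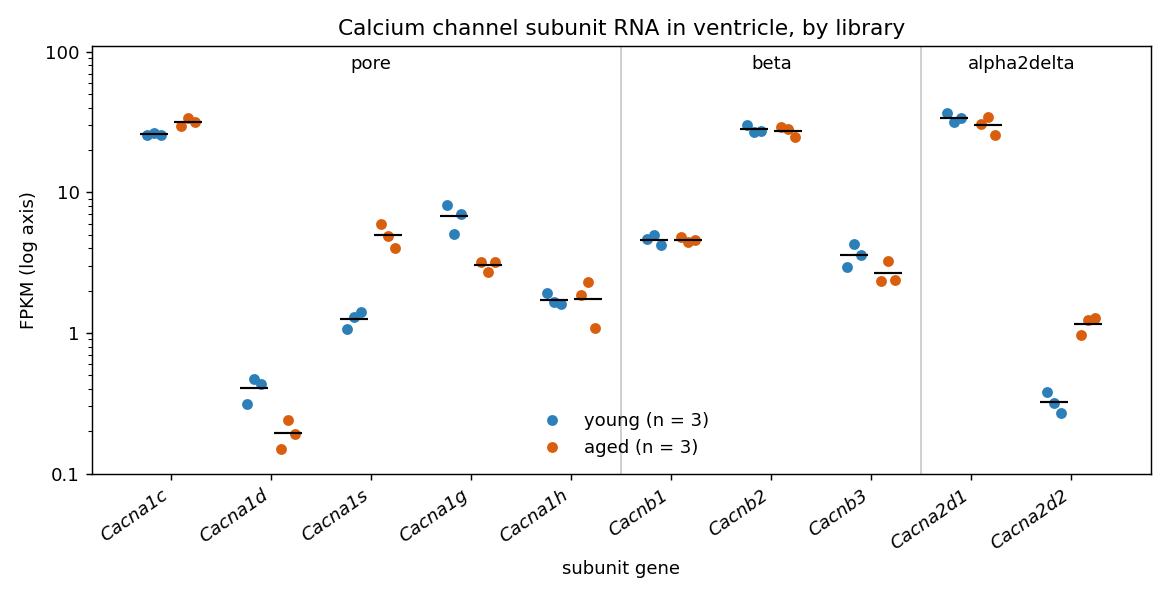
FPKM of the 10 subunit genes in each library (log axis), with young libraries in blue, aged in orange and a black line at the mean of 3. Aged values of Cacna1c, Cacna1s and Cacna2d2 lie wholly above the young values, those of Cacna1g and Cacna1d wholly below, and the ages overlap for the other 5 genes. Over all genes above 0 in a library, the ages do not overlap for 34.2%, and over all tested genes for 43%.

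The cardiac pore gene Cacna1c (chromosome 6, 118587240 to 119197384, GRCm38.p6) was at 25.5, 26.4 and 25.8 FPKM in young ventricle (replicates 1 to 3) and at 29.5, 33.8 and 31.5 in the aged. Every aged library lay above every young one. The rise was modest, 1.22-fold, from 25.9 ± 0.484 to 31.6 ± 2.15 FPKM (SD, n = 3), with a log2 difference of 0.27 (SE 0.0671, limma adjusted p = 0.017). The call was lost without young replicate 3 (adjusted p = 0.0626), without aged replicate 2 (0.0522) and against aged replicate 3 alone (0.101), with the log2 difference between 0.23 and 0.27 in these fits. Of 9 markers of cardiac muscle 3 were higher, 0 lower and 6 not called, beside 9.32% of all tested genes called higher. Their sum was 38007 to 40803 FPKM in young and 45709 to 49420 in aged libraries. Tnnt2, cardiac troponin T, rose 1.25-fold and Myl2, the ventricular myosin light chain, 1.45-fold, while the myosin gene Myh6 was at 0.919 and the actinin gene Actn2 at 0.981 of the young mean, neither called. Of blood, endothelial and fibroblast markers 4, 5 and 5 were tested, and in each list 3 were lower and 0 higher. Of all tested genes 17.1% were called lower. Blood markers summed to 10638 to 16487 FPKM in young and 6881 to 7852 in aged libraries. Endothelial markers summed to 281.3 to 343.5 and 217 to 232, while the fibroblast sums overlapped. The part of all these markers in the rise of Cacna1c was not tested.

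Cacna1s, the skeletal pore gene (chromosome 1, 136052806 to 136119822), was at 1.06, 1.3 and 1.4 FPKM in young ventricle (replicates 1 to 3) and at 5.94, 4.93 and 4.01 in the aged. The lowest aged value was above the highest young one by more than the spread within either age. Cacna1s rose 3.96-fold, from 1.25 ± 0.175 to 4.96 ± 0.965 FPKM (SD, n = 3). Its log2 difference was 1.39 (SE 0.137, 95% interval 1.08 to 1.70, limma adjusted p = 0.000254), the largest in size among the 8 tested subunits. At the estimated worth of 1 fragment, the values stand for about 60 to 89 fragments in young and 194 to 362 in aged libraries.

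Skeletal muscle genes were set beside it, since ventricle should hold no skeletal fibres. Of 10 skeletal fibre markers 3 were tested, 0 were higher and 1, Mybpc2, was lower, beside 9.32% and 17.1% of all tested genes. The 10 markers summed to 13.4 to 17.6 FPKM in young and 10.8 to 15.5 in aged libraries. Mybpc2, at 8.09 to 10.9 in young and 3.57 to 6.05 in aged libraries, was the largest single part of the young sums. For 3 of the 10 markers every aged value lay above every young one, and for 1, Mybpc2, below. Of all genes above 0 in a library, 34.2% had ages that did not overlap. The fast troponin genes Tnnt3 and Tnnc2 were at 1.58 and 1.06 FPKM in aged replicate 1, 2.2 and 2.02 in aged replicate 2, and 0.92 and 0.19 in aged replicate 3. In the young libraries they were at 0.23 to 0.72 and 0.15 to 0.17. The limma fit without a filter on low values called 15.9% of genes. It gave log2 differences of 0.85 for Tnnt3 (adjusted p = 0.0378) and 0.75 for Tnnc2 (adjusted p = 0.146). The highest values of Tnnt3 and Tnnc2 thus stood in the libraries with epithelial transcripts. Tnni2 and Mylpf, tested and not called, were at 4.49 and 2.01 FPKM in aged replicate 1 and 4.33 and 2.19 in aged replicate 2. In aged replicate 3 they were at 2.59 and 0.82, and in young libraries at 2.7 to 4.33 and 1.47 to 1.84. The fast myosin gene Myh4 was at most 0.07 FPKM and listed at 0 in 3 libraries, and the parvalbumin gene Pvalb, a calcium buffer of fast fibres, was at most 0.36 and listed at 0 in young and aged replicate 3. Tnnt3 was above every young value in aged replicate 3 as well. Against that library alone, where Cacna1s was at 4.01 FPKM, its log2 difference was 1.16 (adjusted p = 0.0144). The part of skeletal fibre or epithelial RNA in the rise of Cacna1s was not tested.

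**Figure D2:**
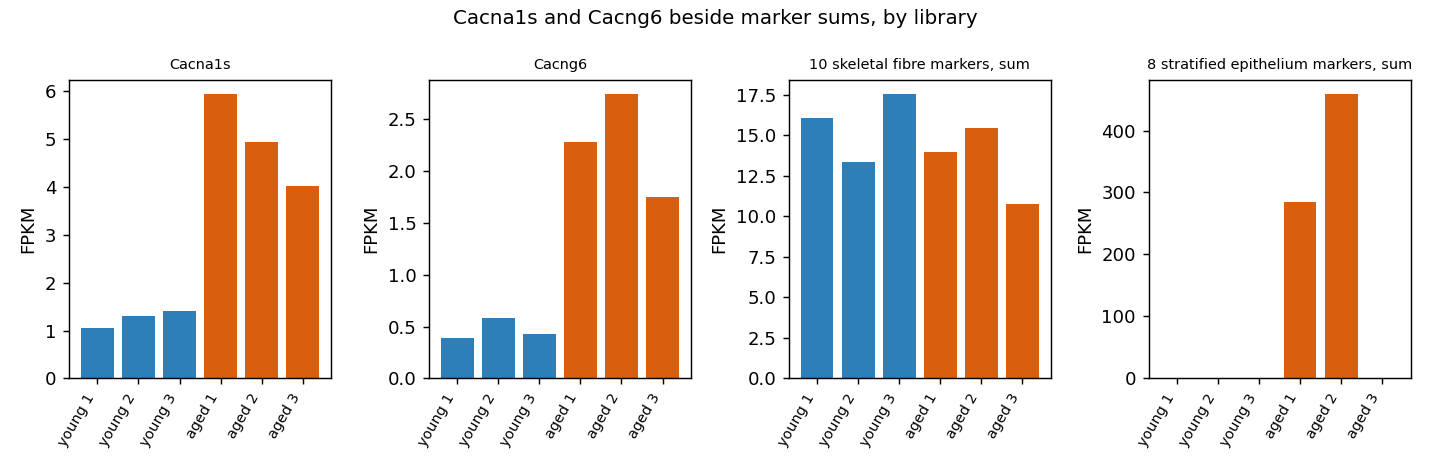
FPKM by library (young blue, aged orange) of Cacna1s, of Cacng6, of 10 summed skeletal fibre markers and of 8 summed stratified epithelium markers, each on its own axis from 0. Cacna1s and Cacng6 are higher in all 3 aged libraries, the skeletal marker sum overlaps between ages, and the epithelial sum is high in aged replicates 1 and 2, at 285 and 459. Mybpc2, which was lower in aged libraries, was the largest single part of the skeletal sum in young libraries.

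The genes whose pattern was most like that of Cacna1s over the 6 libraries were Selenbp1 (Pearson r 0.998), Cnmd (0.996) and Creg1 (0.995), on log2(FPKM + 1). Selenbp1 was at 51.5 to 53.9 FPKM in young and 72.3 to 80.9 in aged libraries. Cnmd was at 0.22 to 0.33 in young and at 4.09, 2.77 and 2.06 in aged replicates 1 to 3, and both Cnmd and Cacna1s were highest in aged replicate 1 and lowest in aged replicate 3. Cnmd passed the level for testing only through its aged values. The 6 points form 2 age groups and share their libraries, so r is a description only.

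Cacna1d, the pore gene of Cav1.3, an L-type channel that opens at more negative potentials and serves sinus node and atrium (chromosome 14, 30039941 to 30491156), was barely present. It was at 0.31, 0.47 and 0.43 FPKM in young and at 0.15, 0.24 and 0.19 in aged libraries, about 13 to 38 fragments per library. The ages did not overlap, but the exact permutation p was 0.1, two-sided, the smallest that 3 against 3 can give. In a fit without a filter on low values, where 15.9% of 17904 genes were called, its log2 difference was -0.23 (adjusted p = 0.0485).

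Of the T-type pore genes Cacna1g fell and Cacna1h was not called. Cacna1g (chromosome 11, 94408391 to 94474400) was at 8.09, 5.08 and 7.06 FPKM in young ventricle (replicates 1 to 3) and at 3.19, 2.73 and 3.21 in the aged. Young replicate 2 was the lowest of its age and still above every aged library. Cacna1g fell 2.22-fold, from 6.74 ± 1.53 to 3.04 ± 0.272 FPKM (SD, n = 3; log2 difference -0.92, SE 0.144, limma adjusted p = 0.00262). Against aged replicate 3 alone the log2 difference was -0.86 and the call was lost (adjusted p = 0.0601). Cacna1h (chromosome 17, 25374285 to 25436334) was at 1.93, 1.65 and 1.6 FPKM in young and at 1.86, 2.29 and 1.09 in aged libraries. The aged values of Cacna1h spanned the young ones on both sides. Its log2 difference was -0.01 (95% interval -0.40 to 0.37, adjusted p = 0.968), turned to above 0 with median-of-ratios and quantile scaling, and does not show equal levels. Aged replicate 3 held the lowest Cacna1h value.

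Conduction tissue, where T-type channels serve pacemaking, was followed by 9 markers. Their sum was 16.5 to 18.9 FPKM in young and 9.14 to 12.5 in aged libraries. Of 4 tested, 0 were higher and 1 was lower, beside 9.32% and 17.1% of all tested genes. It was Kcne1, an accessory subunit of potassium channels, which went from 6.95 ± 1.62 to 0.993 ± 0.0757 FPKM. Kcne1 passed the level for testing only through its young values, and most of the difference in the sum was in Kcne1. Of the 9 markers 2, Kcne1 and the untested Cntn2 (0.71 to 0.307 FPKM), had every aged value below every young one, and 0 above. Of all genes above 0 in a library, 34.2% had ages that did not overlap. The pacemaker channel Hcn4 was at 4.03, 3.01 and 3.11 FPKM in young and 2.9, 3.8 and 2.71 in aged libraries (log2 difference -0.09, adjusted p = 0.678). The nodal transcription factor Tbx3 was at 3.3, 4.86 and 4.14 in the young libraries and at 3.29, 5.5 and 5.97 in the aged (log2 0.20, adjusted p = 0.483). Isl1 was listed at 0 in 5 of 6 libraries. Atrial markers summed to 131 to 261 FPKM in young and 73.6 to 166 in aged libraries, most of it Nppa; of 5 tested 1, Kcnj3, was higher and 0 lower. The part of these markers in the fall of Cacna1g was not tested.

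**Figure D3:**
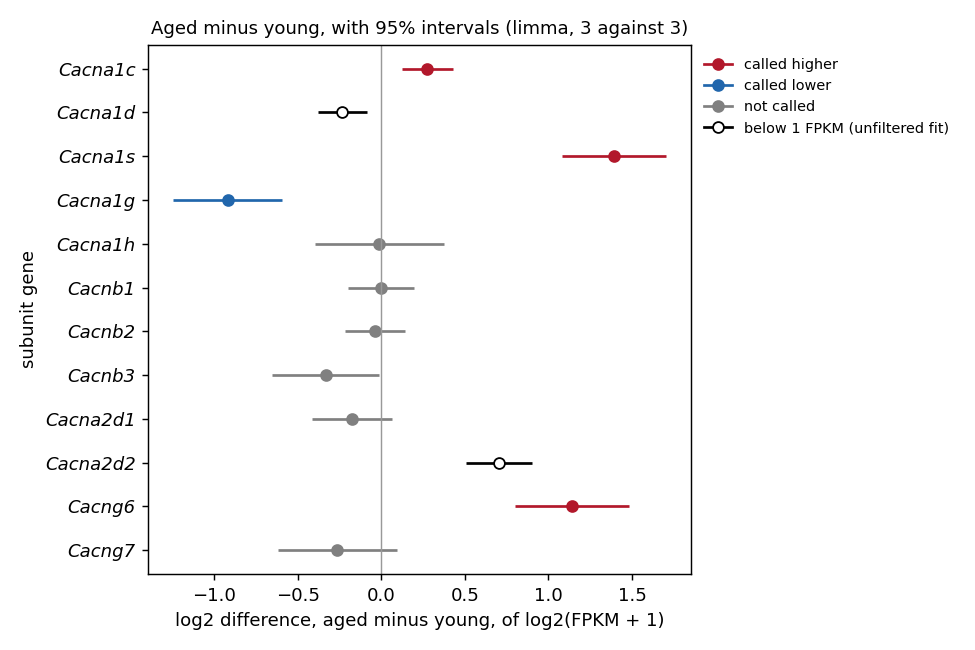
Log2 difference, aged minus young, of log2(FPKM + 1) with 95% intervals from limma for the 10 subunits and 2 gamma subunit genes (red called higher, blue called lower, grey not called, open symbols from the fit without a filter for 2 genes below 1 FPKM). Cacna1s (1.39) and Cacng6 (1.14) lie farthest to the right and Cacna1g (-0.92) farthest to the left.

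No beta subunit gene was called. Cacnb2, the main cardiac beta subunit (chromosome 2, 14603861 to 14988811), was at 30.3, 27 and 27.3 FPKM in young and at 29.2, 28.3 and 24.95 in aged libraries. The ages overlapped, with a log2 difference of -0.04 (95% interval -0.22 to 0.14, limma adjusted p = 0.767). Cacnb1, the beta subunit typical of skeletal muscle (chromosome 11, 98001508 to 98023034), was at 4.64, 4.97 and 4.23 in young and at 4.81, 4.43 and 4.57 in aged libraries. Its interval ran from -0.20 to 0.20 on the log2 scale (adjusted p = 0.994), while Cacna1s, with which Cacnb1 pairs in skeletal muscle, was 3.96-fold higher. Cacnb3 (chromosome 15, 98628436 to 98644536), a beta subunit also common in neurons and smooth muscle, was at 2.96, 4.27 and 3.59 in young and at 2.34, 3.26 and 2.38 in aged libraries. Its log2 difference of -0.33 did not pass (95% interval -0.65 to -0.01, adjusted p = 0.117). The signs of the differences of Cacnb1 and Cacnb2 turned with median-of-ratios and quantile scaling. Of 5 smooth muscle markers tested 2, Acta2 and Tagln, were lower and 0 higher, and of 5 neuron and Schwann cell markers tested 1 was lower and 0 higher, beside 17.1% of all tested genes called lower. Their sums were 593 to 757 FPKM in young and 149 to 175 in aged libraries for smooth muscle, and 18.6 to 24.9 and 18.2 to 23.1 for neurons and Schwann cells. Most of the smooth muscle difference was in Acta2 (543 to 60.2 FPKM). Of the 6 smooth muscle markers 4 had every aged value below every young one, and 1, Cnn1, above. Of all genes above 0 in a library, 34.2% had ages that did not overlap. The neuron marker called lower, Dbh (2.3 to 0.983 FPKM), passed the level for testing only through its young values. The part of these markers in Cacnb3 was not tested.

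The alpha2delta genes lay far apart in level. Cacna2d1, the main alpha2delta subunit of heart and skeletal muscle (chromosome 5, 15934264 to 16374511), was at 36.6, 31.8 and 33.7 FPKM in young and at 30.6, 34.4 and 25.5 in aged libraries. The ages overlapped and the log2 difference of -0.18 did not pass (95% interval -0.41 to 0.06, limma adjusted p = 0.252). Cacna2d2 (chromosome 9, 107399733 to 107529346), an alpha2delta subunit best known from cerebellum, was at 0.38, 0.32 and 0.27 in young and at 0.96, 1.24 and 1.27 in aged libraries. Every aged library was above every young one, and the mean went from 0.323 ± 0.0551 to 1.16 ± 0.171 FPKM (SD, n = 3), 3.58-fold. The values stand for about 16 to 20 and 54 to 63 fragments. Its mean of 0.74 FPKM kept it out of the test; the exact permutation p was 0.1, two-sided. The fit without a filter gave a log2 difference of 0.702 (SE 0.0836, adjusted p = 0.00358).

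In order of level per length, Cacna2d1 led in young ventricle (34.0 FPKM), followed by Cacnb2 (28.2) and Cacna1c (25.9), with no overlap between these neighbours. Then came Cacna1g (6.74), Cacnb1 (4.61), Cacnb3 (3.61), Cacna1h (1.73), Cacna1s (1.25), Cacna1d (0.403) and Cacna2d2 (0.323). Among young neighbours only Cacnb1 with Cacnb3 and Cacna1d with Cacna2d2 overlapped. In aged ventricle Cacna2d1 (30.2 FPKM) overlapped both Cacna1c (31.6) above it and Cacnb2 (27.5) below it, while each aged value of Cacna1c was above each of Cacnb2. Cacna1s came next at 4.96, overlapping Cacnb1 (4.603) but above Cacna1g (3.04), Cacnb3 (2.66), Cacna1h (1.75), Cacna2d2 (1.16) and Cacna1d (0.193). Cacna1g thus stood above Cacna1s in each young library and below it in each aged one.

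Within a library, ratios do not depend on its scaling, so the make-up of the pore genes was compared directly. Cacna1s took 2.88%, 3.72% and 3.86% of the summed FPKM of the 5 pore genes in young libraries and 14.6%, 11.2% and 10.04% in aged. The T-type genes took 27.2%, 19.3% and 23.9% in young and 12.4%, 11.4% and 10.8% in aged, and the ages did not overlap. Most of that difference was in Cacna1g, at 18.7% ± 3.77 in young and 7.37% ± 1.005 in aged, while Cacna1h was at 4.79% ± 0.414 and 4.17% ± 1.29 (SD, n = 3). Cacna1c held 71.9% ± 3.36 of pore RNA in young and 76.03% ± 3.15 in aged, with overlap. The summed pore FPKM itself was 34.9 to 36.9 in young and 39.9 to 43.9 in aged libraries.

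**Figure D4:**
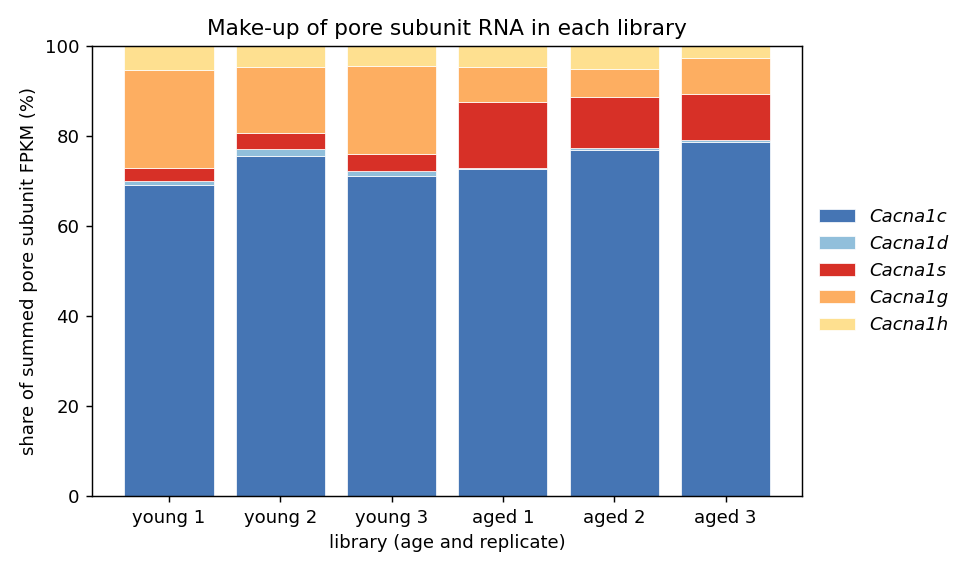
Share of each pore subunit gene in the summed FPKM of the 5 pore genes, as stacked bars for each library. Cacna1s takes 2.88% to 3.86% in young and 10.04% to 14.6% in aged libraries, and Cacna1g 14.5% to 21.9% and 6.21% to 8.04%.

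The log2 ratio of Cacna1s to Cacna1c was -4.38 ± 0.20 in young and -2.69 ± 0.34 in aged (SD, n = 3), that is, 1 to 20.8 and 1 to 6.43 on the linear scale. The log2 ratio of Cacna1g to Cacna1c went from -1.97 ± 0.37 to -3.38 ± 0.22, or from 1 to 3.91 to 1 to 10.4. The ratio of Cacna1g to Cacna1h, both of T type, differed by -1.08 on the log2 scale, but by -0.39 against aged replicate 3 alone, and by -0.78 without aged replicate 2. Cacnb2 and Cacna2d1, the most abundant auxiliary subunits, were lower relative to the cardiac pore gene: the log2 ratio to Cacna1c differed by -0.32 for Cacnb2 and by -0.47 for Cacna2d1, aged minus young, with no overlap between ages. For both, the rise of Cacna1c was part of that ratio. Cacna2d2 made up 0.939% ± 0.126 of alpha2delta FPKM in young and 3.75% ± 0.883 in aged. Of 19 such shares, ratios and sums, 13 had an exact permutation p of 0.1, two-sided, the smallest that 3 against 3 allows, or 0.146 when adjusted over the 19. The exact test cannot pass 0.05 in this design. The 19 quantities share genes and are not independent, so the count of 13 is no result. Over all tested genes 43% had ages that did not overlap.

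Of 16 other calcium channel subunit genes, 14 were in the table and 2 reached the level for testing, both gamma subunits. Cacng6, a relative of the gamma subunit of the skeletal channel (chromosome 7, 3423588 to 3435667), was at 0.39, 0.58 and 0.43 FPKM in young and at 2.28, 2.74 and 1.75 in aged libraries. Its mean was 4.84-fold higher in aged libraries, on about 7 to 10 fragments in young and 27 to 48 in aged libraries. Cacng6 passed the level for testing only through its aged values. In the limma fit without a filter its log2 difference was 1.14 (adjusted p = 0.0031). Cacng7, at 4.72, 6.19 and 4.33 FPKM in young and 5.04, 3.17 and 4.04 in aged, overlapped (log2 -0.26, adjusted p = 0.25). Cacng1, the gamma subunit of the skeletal channel itself, was at 0.18, 0.46 and 0.24 FPKM in young libraries and at 0.08, 0 and 0.11 in aged ones. Among the other pore genes, best known from nerve and retina, Cacna1a was at 0.93 to 1.15 FPKM, and Cacna1b, Cacna1e, Cacna1f and Cacna1i were at most 0.06.

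Genes that regulate the channel were followed through a list of 28. Of these, 24 were tested, 1 was higher and 3 were lower, beside 9.32% and 17.1% of all tested genes, with a median log2 difference of -0.06, the same as for all tested genes. The kinase genes Camk2d and Camk2b, for forms of a calcium- and calmodulin-dependent kinase that acts on the L-type channel, went opposite ways. Camk2d, the main cardiac form, was at 50.5, 46 and 46.6 FPKM in young and at 39, 39.5 and 37.4 in aged libraries, 1.23-fold lower (limma adjusted p = 0.00865). Camk2b was at 4.12, 3.82 and 3.49 in young and at 5.73, 6.68 and 5.51 in aged, 1.57-fold higher (adjusted p = 0.00518). The ages did not overlap for either kinase, and against aged replicate 3 alone neither passed, with log2 differences of -0.34 for Camk2d (adjusted p = 0.0655; -0.30 with all libraries) and 0.44 for Camk2b (adjusted p = 0.101; 0.53 with all libraries). Prkacb, a catalytic subunit of protein kinase A, was called at adjusted p = 0.0469, and the call was lost in 5 of 6 fits that left out 1 library. Rrad, a small GTPase that holds L-type channels back, was at 157 to 190.4 in young and 124 to 187 in aged libraries (log2 -0.24, adjusted p = 0.239).

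Partners in coupling were listed by muscle type, and the lists were not tested against each other. In the cardiac list, of 13 tested genes 2 were higher and 1 was lower, beside 26.4% of all tested genes called, with a median log2 difference of 0.06. Hrc, a calcium-binding protein of the sarcoplasmic reticulum, rose 1.27-fold (422 ± 11.3 to 535 ± 12.9 FPKM, SD, n = 3; limma adjusted p = 0.00237). Tmem38a, a potassium channel of that store, was 1.16-fold higher (adjusted p = 0.0214), a call lost in 5 of 6 fits that left out 1 library. Atp2b4, a calcium pump of the surface membrane, fell 1.66-fold (7.03 ± 0.375 to 4.24 ± 0.442; adjusted p = 0.00193; 0.0577 against aged replicate 3 alone). Ryr2, the cardiac release channel that the L-type channel triggers, was at 89.8 to 96.4 FPKM in young and 84.6 to 101.7 in aged libraries (log2 -0.02, adjusted p = 0.853).

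In the skeletal list, 6 of 12 genes were tested, and 1, Cacng6, was higher and 3 were lower, beside 26.4% of all tested genes called. The median log2 difference of these 6 was -0.33, and Cacng6 was tested only through its aged values. Fkbp1a and Srl, both called lower, averaged 136 and 376 FPKM over the 6 libraries. The list thus also holds genes abundant in ventricle, and its count and median do not describe skeletal-type genes alone. Casq1, the calcium-storing calsequestrin of fast muscle, was at 34.2, 36.6 and 29.1 FPKM in young and at 1.93, 2.02 and 1.78 in aged libraries (log2 -3.55). It thus went the opposite way to Cacna1s. Fkbp1a, a protein bound to release channels, fell 1.32-fold (adjusted p = 0.00125) and Srl, the store protein sarcalumenin, 1.31-fold (adjusted p = 0.00327; 0.0522 against aged replicate 3 alone). Ryr1, the skeletal release channel that Cav1.1 contacts, was at 0.04, 0 and 0.02 FPKM in young libraries and at 0.21, 0.23 and 0.3 in aged ones, a level far under that of Ryr2 at both ages. Atp2a1, the calcium pump of fast fibres, was at 0.12, 0.22 and 0.33 in young libraries and at 0.66, 0.8 and 0.37 in aged ones. For both untested genes every aged value lay above every young one. Of the 12 genes of this list, 4 lay wholly above and 4 wholly below. Of all genes above 0 in a library, 34.2% had ages that did not overlap. In the limma fit without a filter, log2 differences were 0.289 for Ryr1 (adjusted p = 0.00884) and 0.39 for Atp2a1 (adjusted p = 0.0632). That fit called 15.9% of genes. Stac3, an adaptor that Cav1.1 needs in skeletal muscle, was at 0.63 to 0.81 in young and 0.43 to 0.84 in aged libraries.

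**Figure D5:**
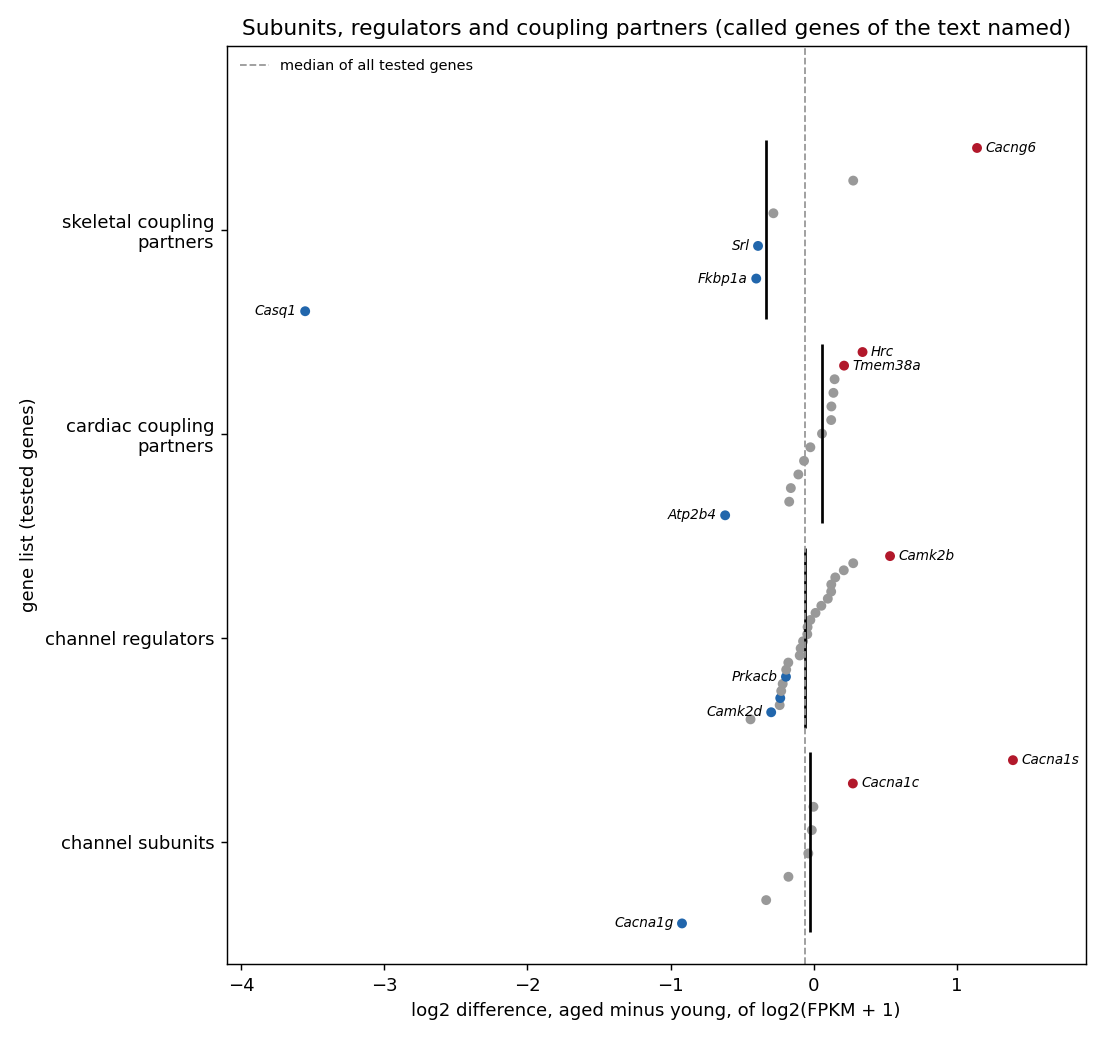
Log2 difference, aged minus young, of log2(FPKM + 1) for each tested gene of 4 lists (red called higher, blue called lower, grey not called), with a black bar at the list median and a dashed line at the median of all tested genes, -0.06. Cacna1s and Cacng6 stand to the right and Casq1, at -3.55, far to the left.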

How the data were processed

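The deposited table holds FPKM, made by the authors, of 18181 genes in 6 libraries. Tools named in the submitters' processing notes, with no role or order, are DESeq2 1.4.5, RSEM 1.2.12, HISAT2 2.0.4 and Bowtie2 2.2.5, beside the build mm10. The annotation used was not given in the sources used here. Depth is not stated. In genes with 1 GENCODE vM21 transcript of 800 to 1800 bases, low values stepped: 1 fragment was worth 0.0981 to 0.13 FPKM times kilobase, and 59.2% to 67.5% of values under 4 fragments lay within 0.15 of a whole number (30% if evenly spread). Relative to young replicate 1, depth was therefore 0.847 to 1.12. Fragment numbers use each gene's longest coding transcript and are estimates; counts were not recovered.

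Aged minus young was tested with limma 3.58.1 in R 4.3.3 on log2(FPKM + 1), a scale that understates changes of low genes, with a two-sided test and a prior variance that follows the mean. Genes under a mean of 1 FPKM were left out. Folds are ratios of mean FPKM. The same steps were tested on simulated data. Coordinates and promoters are RefSeq's for GRCm38.p6, the assembly called mm10; 8 of 10 subunits had a promoter entry. Members, lists and tests were chosen with earlier results of these data known. Named genes were the 10 subunits, up to 4 called genes per list and those like Cacna1s; Cacng1, Cacna1a and the other pore genes, Rrad, Ryr1, Ryr2, Atp2a1, Stac3 and single markers were named after their values were seen. Alternatives were another pseudocount (0.1), other filters, scalings, variance priors and weights, a replicate block, and leaving out libraries. Figures were drawn with matplotlib 3.10.9. A called regulator is not reported here.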

Additional observations from a re-analysis of the deposited data

How the results depend on the processing

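Of the 8 tested subunits, 2 were called higher and 1 lower. With a minimum of 5 FPKM, where fewer subunits are tested, 1 was higher and 0 were lower. Without a filter on low values, 3 were higher and 2 lower. With libraries rescaled to an equal sum (TPM), 3 were higher and 1 lower. Cacna2d2 was then tested and called higher (log2 difference 0.945, limma adjusted p = 0.00588). Cacna1c kept its call narrowly in that setting (limma adjusted p = 0.0497). Against aged replicate 3 alone 1 was higher and 0 were lower. Leaving out each library in turn gave 1 to 2 higher and 1 lower. The rise of Cacna1s kept its call in every fit that tested it, and the fall of Cacna1g in every one except against aged replicate 3 alone. Over all genes, calls were 718 higher and 1164 lower without young replicate 3, 1242 lower without young replicate 2, and 420 and 552 against aged replicate 3 alone.

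Differences near 0 changed sign, all without a call. On the log2 scale Cacna1h was at 0.0285 with median-of-ratios scaling, 0.0153 with quantile normalization and 0.0382 with library quality weights. Leaving out 1 library gave Cacna1h from -0.155 (aged replicate 2) to 0.172 (aged replicate 3). Cacnb1 was at 0.0543, 0.0865 and 0.0281 under these 3 settings, and from -0.0510 (without young replicate 3) to 0.0445 (without young replicate 2). Cacnb2 was at 0.0279, 0.0066 and 0.0015 under them, and from -0.0811 (without aged replicate 1) to 0.0288 (without aged replicate 3). The Cacna1h share of pore FPKM differed by -1.14 (without aged replicate 2) to 0.104 percentage points (without aged replicate 3). The cause was not tested. With the replicate number as a block, 2 subunits were higher and 1 lower. The samples share only a number: deviations of same-numbered samples correlated at 0.0413, -0.0795 and 0.0377, and young replicate 1 correlated best with aged replicate 2 (0.063). Counting error limits Cacna1d, Cacna2d2 and Cacng6, which rest on 7 to 63 fragments per library.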
